A study of Mus musculus with 32 samples.

Results

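The 6 retinoid receptor genes of the mouse, Rara, Rarb, Rarg, Rxra, Rxrb and Rxrg, were examined in 30 chromatin libraries. They were chosen by name from 21883 protein-coding genes, and a gene's window was its annotated extent plus 5 kb each side. The libraries came from CUT&Tag, in which an antibody directs a transposase to chromatin that carries a given histone mark, and each is a list of regions called as enriched (peaks). Cells were a HoxB8 line, bone marrow progenitors immortalised by an estrogen-dependent Hoxb8, taken 48 h after estrogen was removed to release differentiation. All groups share that line and that withdrawal.

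For each of H3K27me3, H2AK119ub and H3K4me1 there were 10 libraries in 4 genotypes. The control group carried the non-targeting guide and the empty pMICH vector (n = 2). The Asxl1 group carried the guide sgRNA Asxl1 B2 and the empty vector (n = 3). The CSF3R group carried the non-targeting guide and pMICH-CSF3R-T618I (n = 3), and the double group carried the Asxl1 guide with pMICH-CSF3R-T618I (n = 2). The Asxl1 groups rest on 1 guide, and the mutant receptor was overexpressed from a vector. A peak list of IgG libraries, merged from an Asxl1 and a CSF3R library, gave the background of the method. It holds no IgG library of control or double cells. The labels do not say that replicate libraries came from separate cultures, so p-values measure the spread between libraries, which may be technical.

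Retinoic acid receptors (Rara, Rarb, Rarg) bind retinoic acid and pair with retinoid X receptors (Rxra, Rxrb, Rxrg) on DNA. Without ligand the pair recruits corepressors, and ligand exchanges these for coactivators. In the granulocyte lineage RARA is known for the fusion PML-RARA of acute promyelocytic leukaemia, and RXRA is also the partner of the vitamin D receptor, PPARs and LXRs. H3K27me3 is laid down by Polycomb repressive complex 2 and H2AK119ub by Polycomb repressive complex 1, and both mark silent or poised promoters. ASXL1 is a cofactor of BAP1, which removes H2AK119ub. H3K4me1 marks enhancers and the flanks of promoters. CSF3R T618I is an activating form of the receptor for granulocyte colony-stimulating factor.

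On mm10 (GRCm38.p6), Rara lies at chr11:98927800-98974942 on the plus strand with 4 listed starts of transcription. Rarb spans chr14:16430839-17082331 on the minus strand (651 kb), and its 1 listed start is 507 kb inside the gene record. Rarg lies at chr15:102234938-102257522 on the minus strand, Rxra at chr2:27676445-27763319, Rxrb at chr17:34031812-34038403 and Rxrg at chr1:167598362-167639623, the last 3 on the plus strand, each with 2 listed starts. The windows also take in parts of other genes: the end of Cdc6 and the predicted gene Gm46294 at Rara, the end of Top2b beside Rarb, the 5′ end of Itgb7 beside Rarg, and H2-Ke6, Slc39a7 and Col11a2 beside Rxrb. A peak there is counted for the window and cannot be assigned to the receptor gene alone.

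The 250 bases before the first listed start are shown for the 4 genes whose starts carry the results below, 5′ to 3′ on the gene's strand, from RefSeq (GRCm38.p6). Capitals mark matches to a retinoid response motif searched on both strands. The motifs were the hexamer AGGTCA, the pair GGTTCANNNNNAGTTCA, and looser direct repeats with 5, 1 or 2 bases between hexamers (DR5, DR1 and DR2). The positions are chr14:16575477-16575726 (minus strand) for Rarb, chr15:102257523-102257772 (minus strand) for Rarg, chr2:27676951-27677200 (plus strand) for Rxra and chr11:98937446-98937695 (plus strand) for Rara.
Rarb: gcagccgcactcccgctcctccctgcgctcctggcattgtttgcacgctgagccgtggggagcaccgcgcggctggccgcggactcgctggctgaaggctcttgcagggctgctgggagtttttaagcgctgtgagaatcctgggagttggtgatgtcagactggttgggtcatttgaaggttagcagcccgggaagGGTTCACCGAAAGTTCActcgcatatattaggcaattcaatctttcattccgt
Rarg: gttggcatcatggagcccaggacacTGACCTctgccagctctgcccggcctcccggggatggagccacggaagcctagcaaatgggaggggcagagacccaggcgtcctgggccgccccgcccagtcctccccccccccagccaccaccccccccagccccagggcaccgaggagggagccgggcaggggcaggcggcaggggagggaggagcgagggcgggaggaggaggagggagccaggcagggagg
Rxra: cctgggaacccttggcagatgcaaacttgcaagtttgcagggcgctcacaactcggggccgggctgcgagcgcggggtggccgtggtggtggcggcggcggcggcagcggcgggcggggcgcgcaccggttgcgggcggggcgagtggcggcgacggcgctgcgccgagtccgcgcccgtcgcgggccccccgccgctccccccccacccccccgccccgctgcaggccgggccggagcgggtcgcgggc
Rara: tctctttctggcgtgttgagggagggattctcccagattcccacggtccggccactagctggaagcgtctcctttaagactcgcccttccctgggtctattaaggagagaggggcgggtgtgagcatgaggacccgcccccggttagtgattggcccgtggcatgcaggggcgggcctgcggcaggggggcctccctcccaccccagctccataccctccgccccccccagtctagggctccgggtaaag
The Rarb sequence holds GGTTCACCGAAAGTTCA, 53 to 37 bases before the start, which also matches DR5. The pair searched is the known repeat of the Rarb promoter, so its match there was fixed in advance. It stood in 2 of 32851 listed promoters, Rarb included (0.00609%), and the looser DR5 in 0.262%. The Rarg match is AGGTCA on the opposite strand, a motif in 14% of promoters. No motif letters were found in this window of Rxra or Rara. The Rxra sequence is 81.2% G or C with 40 CpG dinucleotides, against medians of 52.4% and 6 over all listed promoters.

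The 6 genes divided by which marks they carried. Rara, Rarg and Rxra had peaks of H2AK119ub and H3K4me1 in all 10 libraries of each mark, and of H3K27me3 in 7, 10 and 5 of 10. Rarb and Rxrg had H3K27me3 in all 10 libraries and H3K4me1 in 0 of 10. Rxrb had H3K27me3 in 0 of 10 libraries and H3K4me1 in 9. As a share of the window, which allows for gene length, mean H3K4me1 coverage over 10 libraries was 43% at Rara, 23.9% at Rarg, 20.4% at Rxra and 8.06% at Rxrb. Mean H2AK119ub coverage was 42.2% at Rara, 18.3% at Rarg and 8.76% at Rxra, and at most 2.32% at each of the other 3. Mean H3K27me3 coverage was highest at Rarg (26.8%) and lay between 2.49% and 8.45% at Rxrg, Rara and Rxra. At Rarb it was 0.279% of a window of 661 kb.

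**Figure D1:**
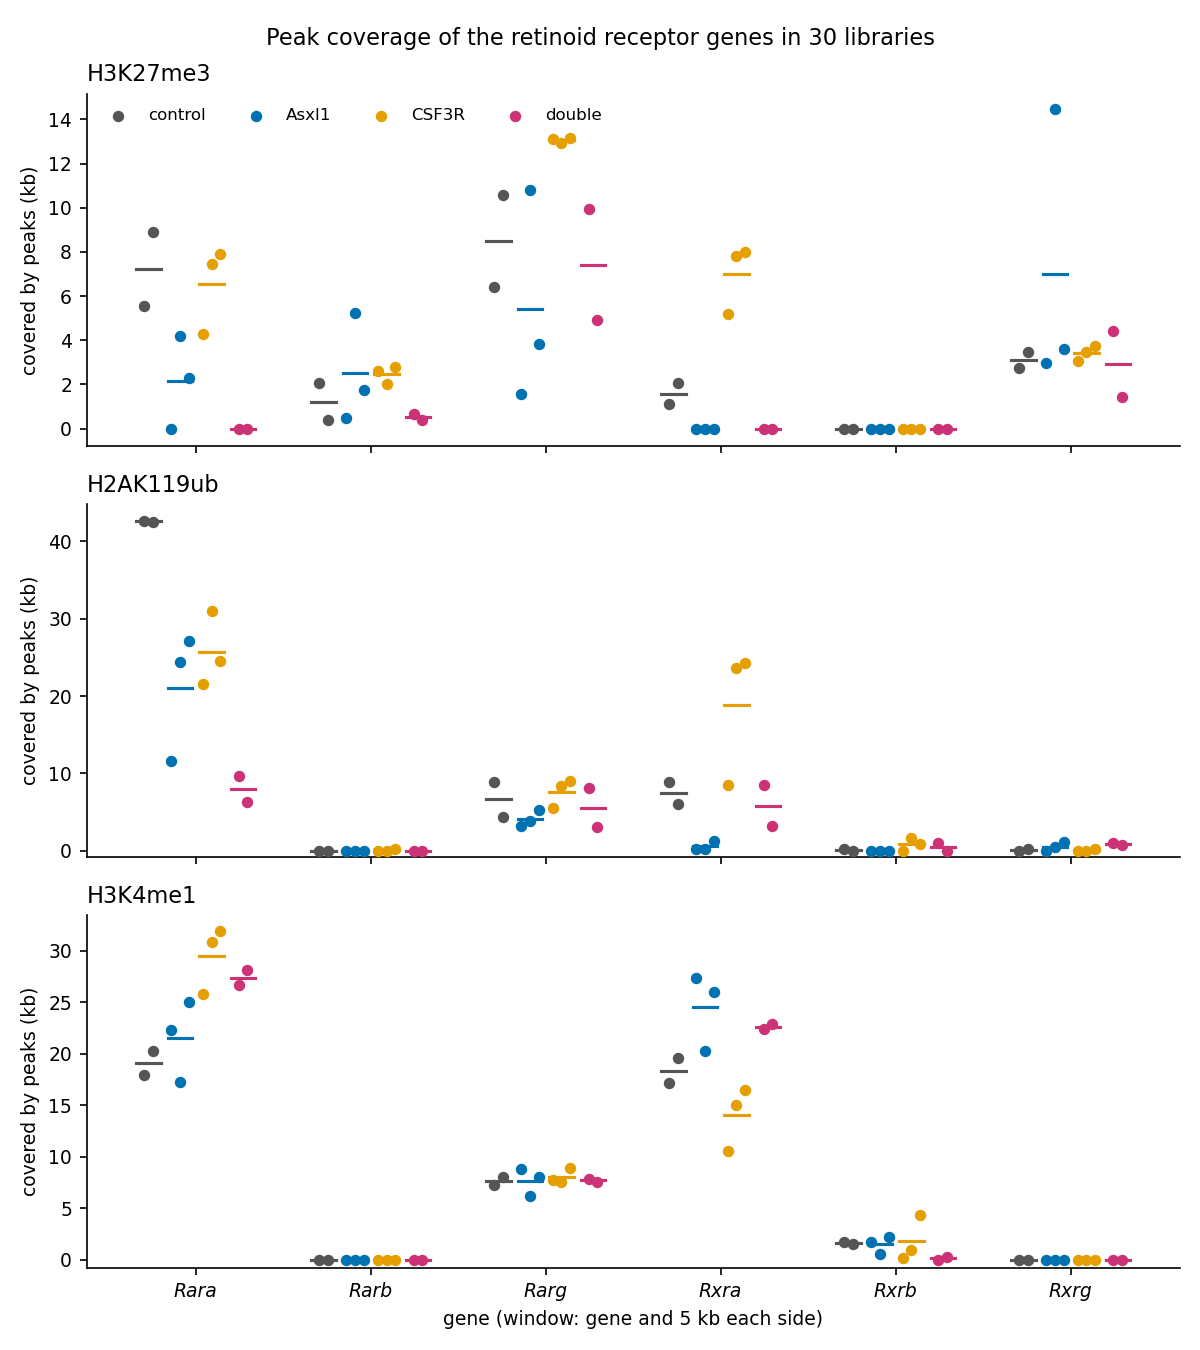
Kilobases of each gene's window (gene and 5 kb each side) covered by peaks, with 1 point per library, a short line at each group mean, and 1 panel per mark. Rara, Rarg and Rxra carry all 3 marks. Rarb and Rxrg show H3K27me3 with no H3K4me1, and Rxrb shows no H3K27me3.

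The lists differ in length. H3K27me3 lists covered 4.73 to 53.0 Mb of the genome, H2AK119ub lists 11.8 to 39.1 Mb and H3K4me1 lists 26.6 to 47.2 Mb. The longest H3K27me3 list, Asxl1 replicate 2 (53.0 Mb), stands apart from the other 2 of its group (4.73 and 12.4 Mb). For H3K27me3 over the gene, Asxl1 against control is given with and without it. The other 2 lists are shorter than both control lists (15.9 and 22.7 Mb). The share of all genes that pass without it is not reported here, so such a pass cannot be read as particular to a member. The files hold no read counts, so depth is unknown and a missing peak means only that none was called. Of 10 neutrophil progenitor markers 8 had H3K4me1 in all 10 libraries. Markers of other cells were mixed: 4 of 5 T cell, 2 of 5 erythroid, 2 of 5 mast and basophil and 1 of 5 monocyte and macrophage markers had none in any library, while 1 of 5 B cell, 1 of 5 T cell, 2 of 5 mast and basophil and 2 of 5 monocyte and macrophage markers had it in all 10. Their part in the results was not tested.

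Rxra carried H3K27me3 around its first start, longest in CSF3R libraries and missing from every library with the Asxl1 guide. Its H2AK119ub was longest on average in CSF3R libraries, where the range overlapped the controls, and shortest in Asxl1 libraries. In double libraries it also overlapped the controls. H3K27me3 covered 1.1 and 2.05 kb in the control libraries and 5.2, 7.8 and 8 kb in the CSF3R libraries. It covered 0 kb in all 3 Asxl1 libraries and both double libraries. The group ranges therefore did not overlap between guides in either background, and the longest H3K27me3 list, Asxl1 replicate 2, held no peak in the window. All H3K27me3 peaks lay between 4.55 kb before and 3.6 kb after the first start, and the start itself was inside a peak in 2 CSF3R libraries and in no other.

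On the scale log2(covered kb + 0.5), H3K27me3 at Rxra was lower in double than in CSF3R libraries by a difference of -3.88 (95% interval -5.01 to -2.76, limma adjusted p = 0.00473). Since the double libraries are at 0, this difference depends on the added 0.5 kb and is no fold. Coverage reached the 2 kb needed for testing in 3 of 3 CSF3R and 1 of 2 control libraries and in no other, so the gene was tested only because it was long in CSF3R libraries. Of all genes tested 7.13% were called lower in that comparison, and the median gene moved by -1.10. The call ended without double replicate 1 (adjusted p = 0.112) or 2 (adjusted p = 0.0977). Asxl1 against control gave -2.01 (-3.14 to -0.89, adjusted p = 0.741), and without Asxl1 replicate 2 the same -2.01 passed (adjusted p = 0.0138). No gene of 4348 passed in that comparison with all libraries (0%), and 185 had an unadjusted p under 0.05. CSF3R against control gave 1.87 (adjusted p = 0.0829) and double against control -2.01 (adjusted p = 0.225). Without Asxl1 replicate 2 both passed (adjusted p = 0.00885 and 0.0182), and with each library's covered length in the fit all 3 passed (adjusted p = 0.0112, 0.0191 and 0.00795). For neither setting is the share of all genes reported here.

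In the 10 kb centred on the first start, the covered fraction with H3K27me3 was 0.158 ± 0.067 (SD, n = 2) in control and 0.7 ± 0.156 (SD, n = 3) in CSF3R libraries. The difference of 0.542 was called (adjusted p = 0.0246), as were 2.69% of genes in that direction. It was not called without either control, Asxl1 replicate 3, CSF3R replicate 2 or 3, or either double library (adjusted p = 0.0569 to 0.365). Double against CSF3R was called at -0.70 (adjusted p = 0.00952), as were 23.6% of genes in that direction, and not without CSF3R replicate 3 or either double library (adjusted p = 0.069 to 0.144).

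H2AK119ub at Rxra was lowest with the Asxl1 guide and the empty vector. It covered 8.85 and 6.05 kb in control libraries and 0.25, 0.3 and 1.3 kb in Asxl1 libraries. It covered 8.55, 23.7 and 24.2 kb in CSF3R libraries and 8.5 and 3.2 kb in double libraries. The Asxl1 libraries were below every other library. The region from 4.05 kb before to 6.7 kb after the first start held a mean of 4.23 of 7.45 kb in control and 8.28 of 18.8 kb in CSF3R libraries. The rest lay along the gene, with peaks at 59.1 to 64.5 kb in 8 of 10 libraries and at 78.7 to 83.6 and 87.1 to 88 kb in 7 each. Asxl1 against control was called (-2.93, interval -4.16 to -1.70, adjusted p = 0.00622), where 20.7% of genes were called lower and the median gene moved by -0.65. The call ended without control replicate 1 (adjusted p = 0.0655) and on the fraction scale (adjusted p = 0.377).

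Double against Asxl1 was called for H2AK119ub at Rxra (2.49, interval 1.26 to 3.72, adjusted p = 0.00842), a direction in which 28.8% of genes were called and the median gene moved by 0.80. The call ended without double replicate 1 (adjusted p = 0.118), whose list was the longest of the mark at 39.1 Mb, and with each library's covered length in the fit (0.16, adjusted p = 0.898). Double against CSF3R was -1.61 (adjusted p = 0.092), and the groups did not overlap. It passed with covered length in the fit (-2.16, adjusted p = 0.000886), without CSF3R replicate 1 (-2.08, adjusted p = 0.0308) and with 2 kb added (adjusted p = 0.0491). Double against control passed only with covered length in the fit (-1.56, adjusted p = 0.0089). In the 10 kb at the start, double against CSF3R was -0.448 and was called (adjusted p = 0.0316; 5.54% of genes were called lower). It was not called without any of the 3 Asxl1 libraries, CSF3R replicate 2 or 3, or either double library (adjusted p = 0.0547 to 0.122).

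Inside Rxra, H3K4me1 lay well downstream of the first start, in blocks at 9.8 to 17.4, 19.9 to 28.9 and 33.2 to 41.8 kb, the last just past the other listed start at 32.1 kb. The window held 17.1 and 19.6 kb in control, 27.3, 20.2 and 25.9 kb in Asxl1, 10.5, 15.1 and 16.5 kb in CSF3R, and 22.4 and 22.9 kb in double libraries. The 3 CSF3R libraries of H3K4me1 held less of it than each of the other 7. The separate H3K27me3 libraries of the CSF3R group held the most of that mark. Double against CSF3R was called (0.70, interval 0.25 to 1.14, adjusted p = 0.0449), as were 2.41% of genes in that direction. The call ended without each of 8 libraries, the exceptions being Asxl1 replicate 2 and CSF3R replicate 3 (adjusted p = 0.055 to 0.183). The merged IgG list covered 7.9 kb of the window in 11 peaks, and with peaks that overlap IgG removed the adjusted p was 0.736. The call also ended with no filter (0.0612), with no trend (0.0913) and on the fraction scale (0.0777).

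The H3K4me1 blocks did not share one pattern. The block at 9.8 to 17.4 kb had a mean of 4.03 kb in control, 7.08 kb in Asxl1, 1.58 kb in CSF3R and 5.30 kb in double libraries, and was empty in 1 CSF3R library. The block at 33.2 to 41.8 kb had means of 7.47 to 8.33 kb in the 4 groups. No region held H3K4me1 together with a Polycomb mark in all libraries of a group (0 kb shared at Rxra in each genotype).

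**Figure D2:**
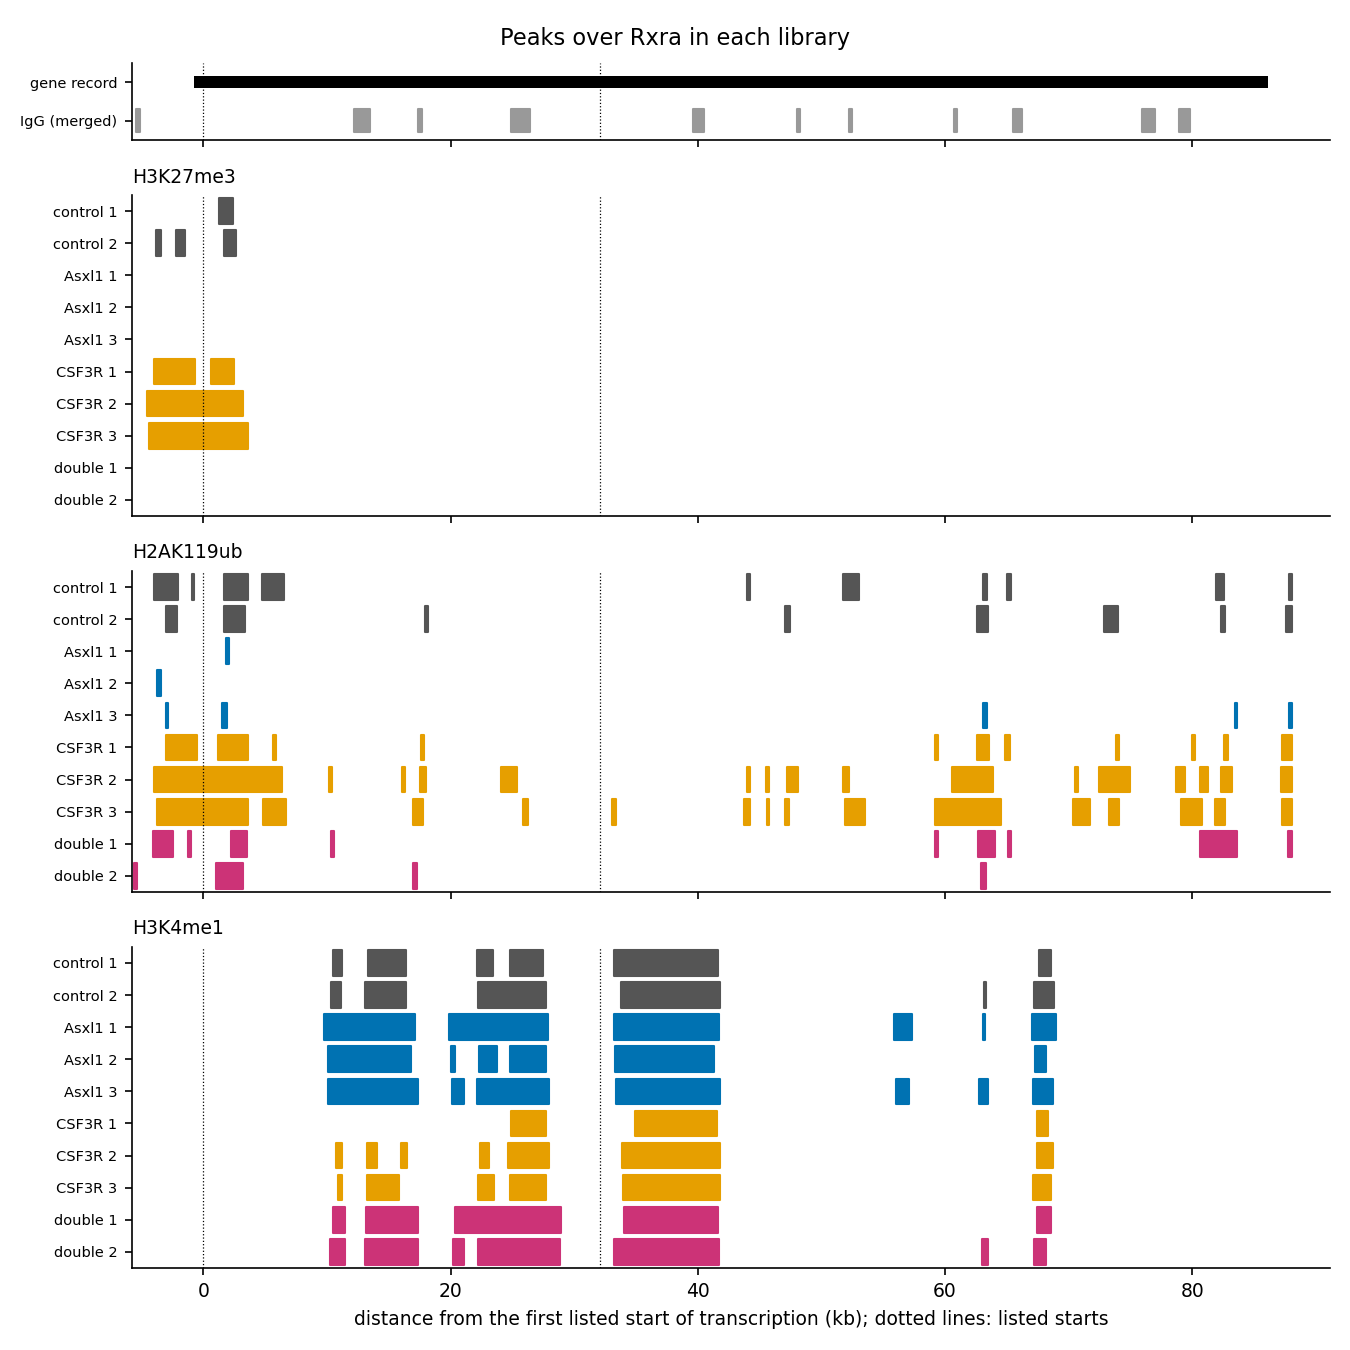
Peaks over Rxra in each library (rows, coloured by genotype) against distance in kb from the first listed start, with the gene record and the merged IgG peaks on top. H3K27me3 sits between 4.55 kb before and 3.6 kb after the start and only in control and CSF3R rows, while H3K4me1 blocks lie from 9.8 kb on.

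Rara, the receptor of the leukaemia fusion, carried long H2AK119ub domains that were longest in control cells and shortest in double cells. H2AK119ub covered 42.6 and 42.5 kb of the 57.1 kb window in control libraries, and 11.7, 24.4 and 27.1 kb in Asxl1 libraries. It covered 21.5, 30.9 and 24.5 kb in CSF3R libraries and 9.7 and 6.25 kb in double libraries. Both controls were above all other libraries and both double libraries below them. The double library with 9.7 kb had the longest H2AK119ub list of all.

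Double against control was -2.38 (interval -3.18 to -1.58, adjusted p = 0.00289), where 2.83% of genes were called lower. This call held without each of the 10 libraries in turn. Double against CSF3R was -1.64 (adjusted p = 0.0127), where 6.19% were called lower, and ended without double replicate 2 (adjusted p = 0.0941). Double against Asxl1 was -1.29 (adjusted p = 0.0151), a direction in which 0.591% of genes were called, and ended without Asxl1 replicate 2 (adjusted p = 0.0545) or double replicate 2 (adjusted p = 0.0759), and on the fraction scale (0.0874). Asxl1 against control was -1.08 (adjusted p = 0.0386), and it ended without either control (adjusted p = 0.159 and 0.166), Asxl1 replicate 1 (0.0858) or 2 (0.052), or CSF3R replicate 3 (0.0559), and held in only 5 of 11 other settings of the processing. CSF3R against control was -0.74 (adjusted p = 0.371), with 1.28% of genes called in either direction. The guide's difference did not pass as differing between backgrounds (interaction -0.56, adjusted p = 0.562; 0.142% of genes passed). The IgG list holds 1.85 kb of the window in 4 short peaks, and leaving out every peak that overlaps IgG, which removes whole domains here, ended all 4 H2AK119ub calls (double against control -0.78, adjusted p = 0.395).

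Control and double libraries differed more around the first start of Rara than at the downstream one. The H2AK119ub region from 12.9 kb before to 6.35 kb after it had a mean of 18.7 kb in control, 9.40 kb in Asxl1, 11 kb in CSF3R and 2.52 kb in double libraries. The region from 21.8 to 35.8 kb, which holds the downstream start at 27.2 kb, had 12.95, 9.63, 12.2 and 5.03 kb. In the 10 kb at the first start the fraction covered was 1 ± 0 (SD, n = 2) in control and 0.055 ± 0.0424 (SD, n = 2) in double libraries. That difference of -0.945 was called (adjusted p = 0.00595; 1.85% of genes were called lower), and not without control replicate 1 (0.0608) or 2 (0.0529). Double against CSF3R was called there too (-0.518, adjusted p = 0.0411; 5.54% of genes were called lower). It held in 1 of 8 other settings and ended without each of 8 libraries, the exceptions being Asxl1 replicate 1 and CSF3R replicate 1 (adjusted p = 0.0584 to 0.139).

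H3K27me3 at Rara covered less and lay mainly between 21.8 and 27.7 kb, largely upstream of the downstream start at 27.2 kb. That start was inside a peak in 3 libraries, 2 control and 1 CSF3R. The window held 5.55 and 8.9 kb in control, 0, 4.19 and 2.3 kb in Asxl1, 4.29, 7.44 and 7.89 kb in CSF3R, and 0 kb in both double libraries. The region from 21.8 to 27.7 kb had a peak in both control libraries, 2 of 3 Asxl1, 3 of 3 CSF3R and 0 of 2 double libraries. Double against CSF3R was called (-3.77, interval -5.63 to -1.91, adjusted p = 0.0234) and rests on the added 0.5 kb as at Rxra. It ended without any 1 of the 3 CSF3R or 2 double libraries (adjusted p = 0.0557 to 0.187), on the fraction scale (0.0575) and without IgG-overlapping peaks (0.0625). Asxl1 against control was -2.01 (adjusted p = 0.93), and without Asxl1 replicate 2 it was -2.67 and passed (adjusted p = 0.0284). Double against control was -3.91 (adjusted p = 0.136; 0.207% of genes passed), and passed without Asxl1 replicate 1 (adjusted p = 0.0118) or 2 (adjusted p = 0.012) and with covered length in the fit (-3.74, adjusted p = 0.000673).

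H3K4me1 at Rara was longer in cells with CSF3R T618I. It covered 17.9 and 20.2 kb in control, 22.2, 17.2 and 25.1 kb in Asxl1, 25.8, 30.9 and 31.9 kb in CSF3R, and 26.7 and 28.1 kb in double libraries. The 5 libraries with CSF3R T618I were above the 5 without it. The longest single peak measured 8.3 to 9.15 kb in the 5 libraries without CSF3R T618I and 20.4 to 22.2 kb in the 5 with it: the stretch from 0.605 to 22.0 kb past the first start held 3 or 4 peaks in each of the former, with gaps after 7.05 to 8.15 kb and after 18.2 to 18.5 kb, and was called as 1 domain in the latter. The double group kept this long domain, while its separate H2AK119ub and H3K27me3 libraries had the lowest means of all groups.

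CSF3R against control was called for H3K4me1 at Rara (0.61, interval 0.24 to 0.99, adjusted p = 0.0446; 8.63% of genes were called higher). The call ended without either control, Asxl1 replicate 1, CSF3R replicate 2 or 3, or double replicate 2 (adjusted p = 0.051 to 0.286), and held in 5 of 11 other settings. Leaving out IgG-overlapping peaks turned its sign (-0.53, adjusted p = 0.731), since 1 long CSF3R domain touches an IgG peak and was removed whole. In the 10 kb at the start the fraction rose from 0.424 ± 0.085 (SD, n = 2) to 0.77 ± 0.155 (SD, n = 3; adjusted p = 0.0328; 7.86% of genes were called higher). That call ended without either control, Asxl1 replicate 3, or CSF3R replicate 2 or 3 (adjusted p = 0.0518 to 0.248). Double against control was 0.51 (adjusted p = 0.0655) and double against Asxl1 0.36 (adjusted p = 0.144), with 25.8% and 28% of genes called in either direction. Both passed with a 2 kb flank (adjusted p = 0.0239 and 0.0448) or none (0.0221 and 0.0389). Double against control also passed with covered length in the fit (0.0261) and without Asxl1 replicate 2 (0.0245).

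**Figure D3:**
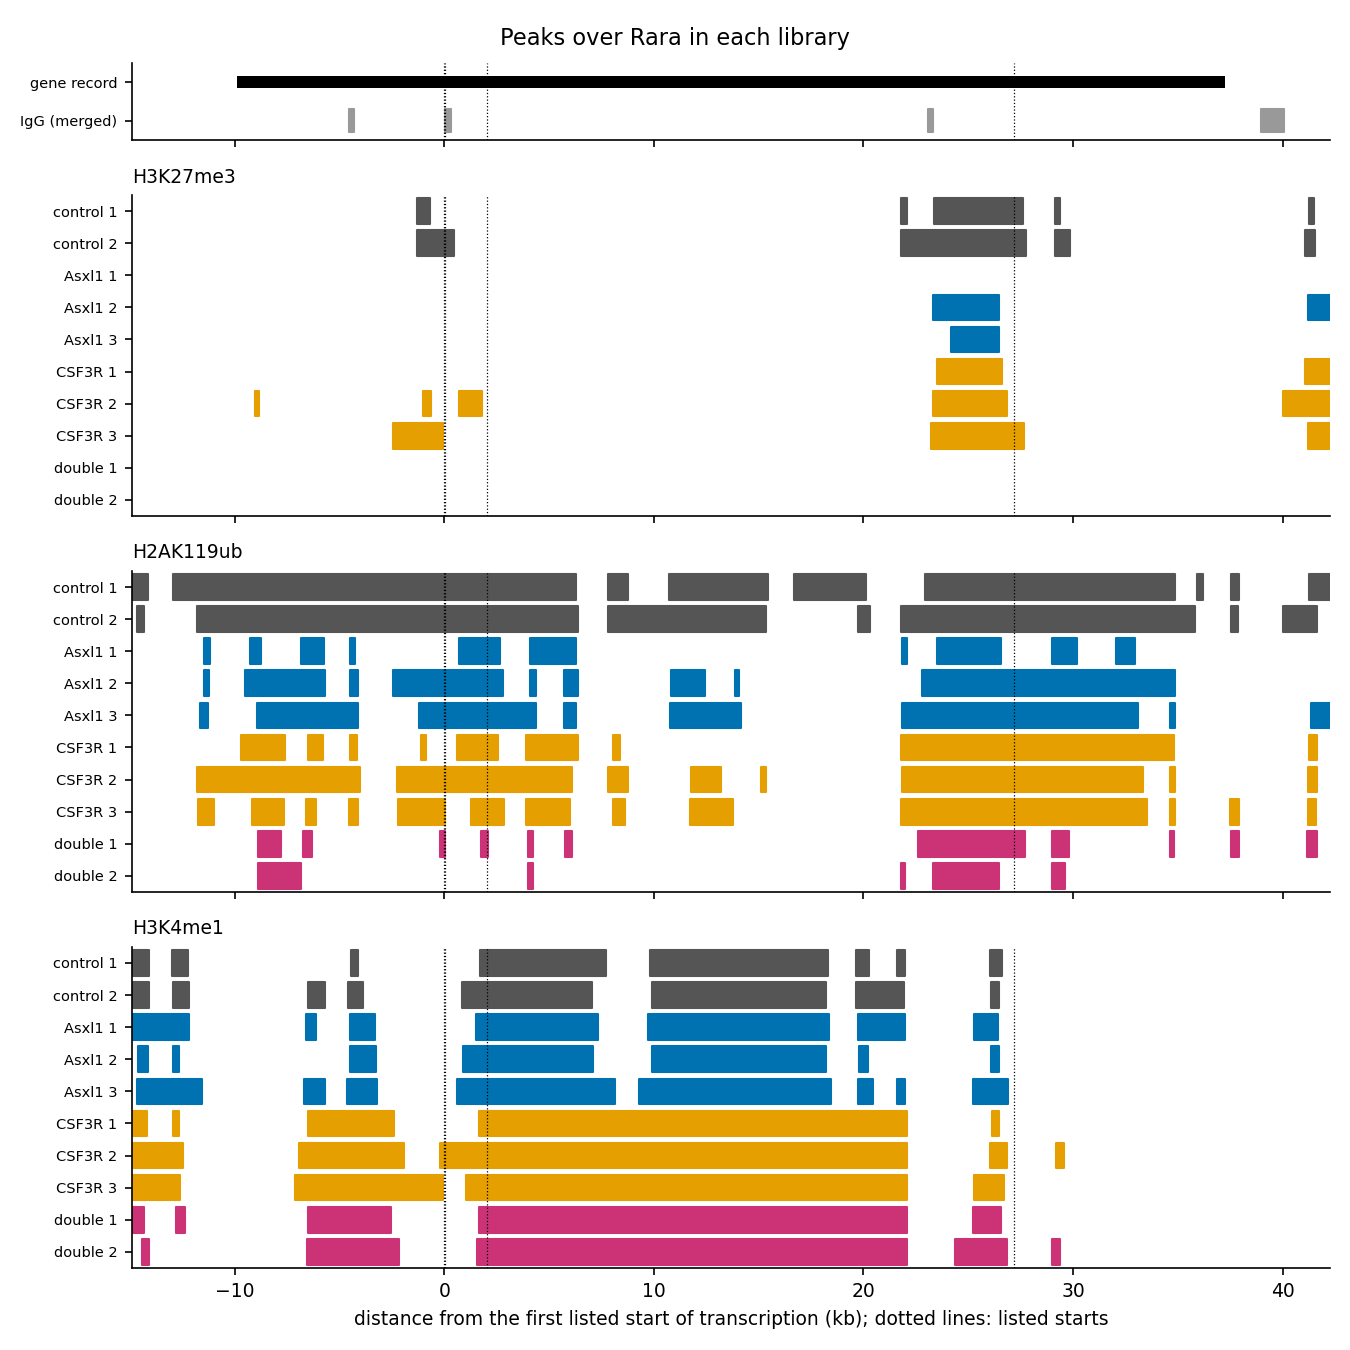
Peaks over Rara in each library (rows, coloured by genotype) against distance in kb from the first listed start. H2AK119ub is longest in the control rows and shortest in the double rows, and H3K4me1 past the start is 1 domain of 20.4 to 22.2 kb in the 5 rows with CSF3R T618I.

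The other 3 genes with H3K27me3 kept it at the start in nearly every library. Rarg, the receptor expressed in haematopoietic stem cells and epithelia, held 6.42 and 10.6 kb in control, 1.55, 10.8 and 3.85 kb in Asxl1, 13.1, 12.9 and 13.2 kb in CSF3R, and 9.92 and 4.92 kb in double libraries. The CSF3R libraries were above all others, each with 1 unbroken domain of 14.4 to 14.6 kb. The first start was inside a peak in 10 of 10 libraries. No comparison was called (double against CSF3R -0.85, interval -2.36 to 0.65, adjusted p = 0.379). Asxl1 against control at Rarg was -0.91 with all libraries (adjusted p = 0.93). Without Asxl1 replicate 2 it was -1.55 and passed (adjusted p = 0.04), in a setting whose share of all genes is not reported here.

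H2AK119ub at Rarg covered 3.07 to 9 kb and overlapped between all groups compared. H3K4me1 there was the steadiest of the members' marks, at 6.2 to 8.9 kb in 10 libraries, with intervals of every difference inside -0.60 to 0.49. It lay in a block at 11.7 to 15.7 kb, just past the other listed start at 11 kb, and in a block at 20.8 to 26.9 kb that reaches the 5′ end of Itgb7, a leukocyte integrin subunit. The downstream block is the longer (means of 4.95 to 5.82 kb) and cannot be assigned to Rarg.

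Rarb is a target of its own receptor, induced by retinoic acid through the repeat shown in capitals above. H3K27me3 lay over that start in 9 of 10 libraries, all but double replicate 2, in a region from 2.47 kb before to 0.675 kb after it. The window held 2.05 and 0.4 kb in control, 0.5, 5.25 and 1.75 kb in Asxl1, 2.6, 2 and 2.8 kb in CSF3R, and 0.65 and 0.4 kb in double libraries. The CSF3R libraries were above the double libraries, and the difference was not called (-1.53, interval -3.21 to 0.15, adjusted p = 0.222; adjusted p = 0.0385 without Asxl1 replicate 2). Asxl1 against control was 0.63 with that library (adjusted p = 0.93) and -0.014 without it (adjusted p = 1). H2AK119ub was seen in 1 library (0.2 kb), and the IgG list covers 6.5 kb of this long window in 16 peaks.

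Rxrg, the retinoid X receptor best known from muscle and brain, held H3K27me3 over its first start in 10 of 10 libraries. It covered 2.75 and 3.45 kb in control, 2.95, 14.4 and 3.6 kb in Asxl1, 3.05, 3.45 and 3.75 kb in CSF3R, and 4.4 and 1.45 kb in double libraries. The value of 14.4 kb is that of Asxl1 replicate 2. The groups overlapped in every comparison, and none was called (Asxl1 against control 0.73, interval -0.79 to 2.26, adjusted p = 0.93). Without that library the difference was 0.07 (adjusted p = 0.93). H2AK119ub covered at most 1.1 kb of the window and never the start, which was also outside every H2AK119ub peak at Rarb.

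**Figure D4:**
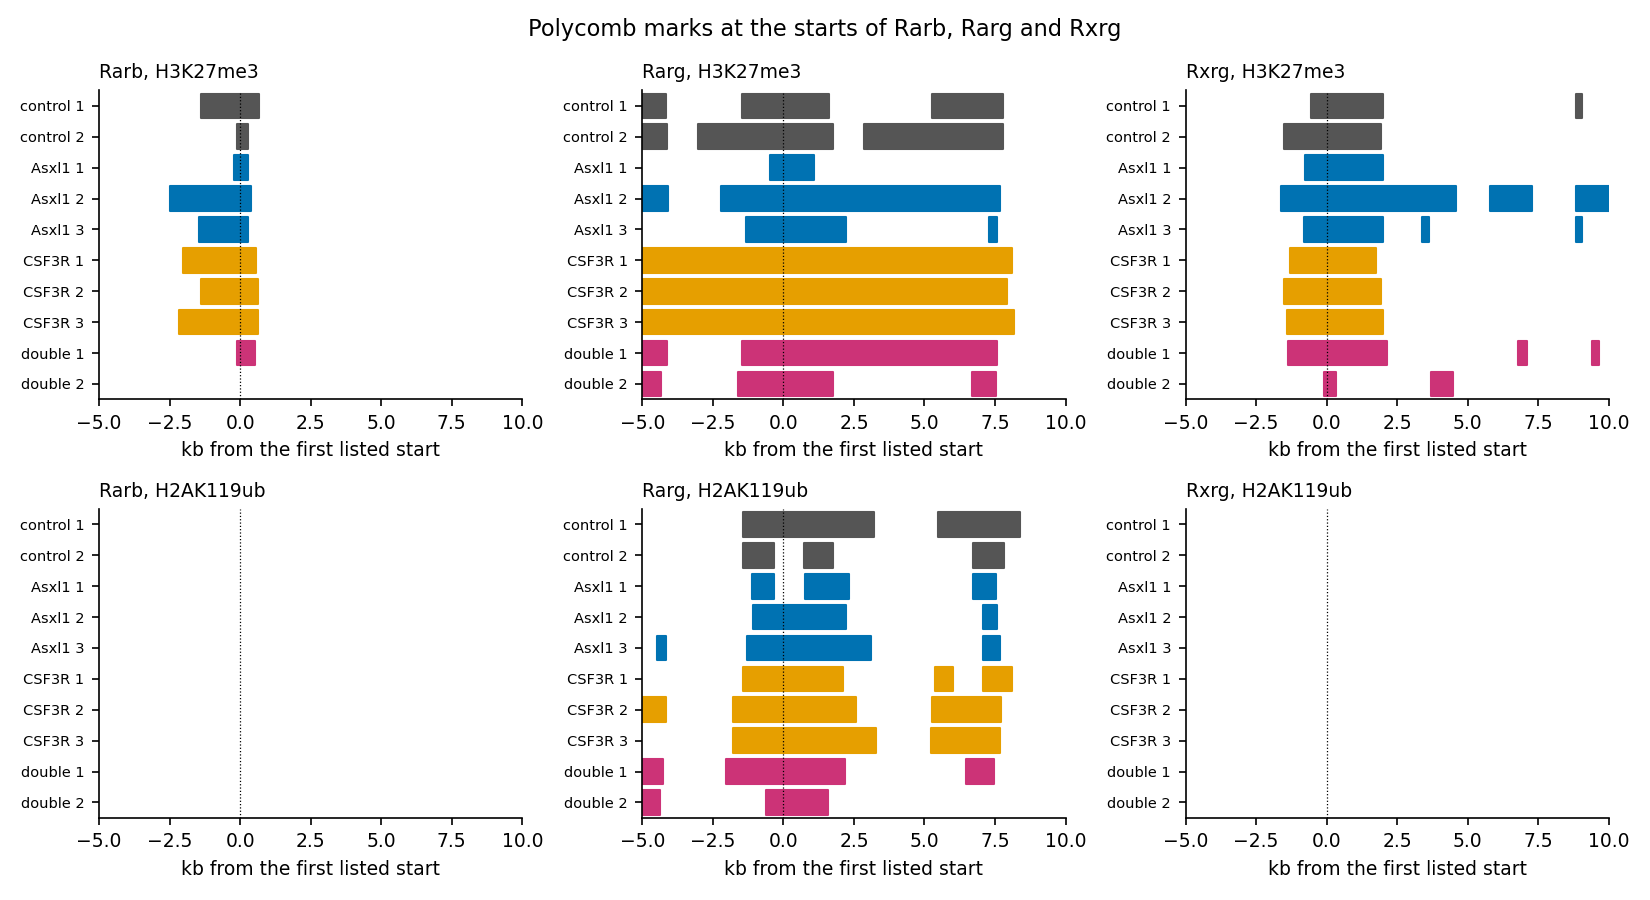
H3K27me3 (top) and H2AK119ub (bottom) peaks from 5 kb before to 10 kb after the first listed start of Rarb, Rarg and Rxrg, 1 row per library. H3K27me3 covers the start in 9, 10 and 10 of 10 libraries, and H2AK119ub appears at Rarg only.

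Rxrb, the broadly expressed retinoid X receptor, had no H3K27me3 peak in any library and H2AK119ub of 0 to 1.65 kb. H3K4me1 covered 1.69 and 1.54 kb in control, 1.69, 0.539 and 2.19 kb in Asxl1, 0.2, 0.889 and 4.34 kb in CSF3R, and 0 and 0.3 kb in double libraries. The double libraries were below the controls and the Asxl1 libraries, and the difference from control was not called (-1.74, interval -3.56 to 0.08, adjusted p = 0.147). The peaks upstream of the start (5.00 to 1.36 kb before it) lie over Slc39a7 and H2-Ke6, and those at 1.69 to 2.64 kb lie inside Rxrb.

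Over all comparisons, 12 of the 18 gene and mark pairs reached 2 kb in at least 2 libraries and were tested. For H3K27me3, 2 of 5 tested members were lower in double than in CSF3R libraries, where 7.13% of all genes were, with a members' median of -1.53 against -1.10 for all genes. None passed in CSF3R against control (3.33% of genes did), double against Asxl1 (0.253%) or the interaction (0%, 332 with an unadjusted p under 0.05). In each of these 3 comparisons 1 of the 5 members had an unadjusted p under 0.05 by limma. For H2AK119ub, 2 of 3 were lower in Asxl1 than in control libraries, where 20.7% of all genes were (median -1.08 against -0.65). In double libraries 1 of 3 was lower than in CSF3R (6.19% of genes), 1 lower than in control (2.83%), and 1 higher (28.8%) and 1 lower (0.591%) than in Asxl1 libraries. For H3K4me1, 1 of 4 was higher in CSF3R than in control libraries (8.63% of genes) and 1 of 4 in double than in CSF3R libraries (2.41%). None of the 4 passed for H3K4me1 in Asxl1 against control (0.0738% of genes did) or the interaction (2.75%), and 0 of them had an unadjusted p under 0.05 there. Asxl1 against control and double against control share the control libraries, and the other comparisons share groups likewise.

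**Figure D5:**
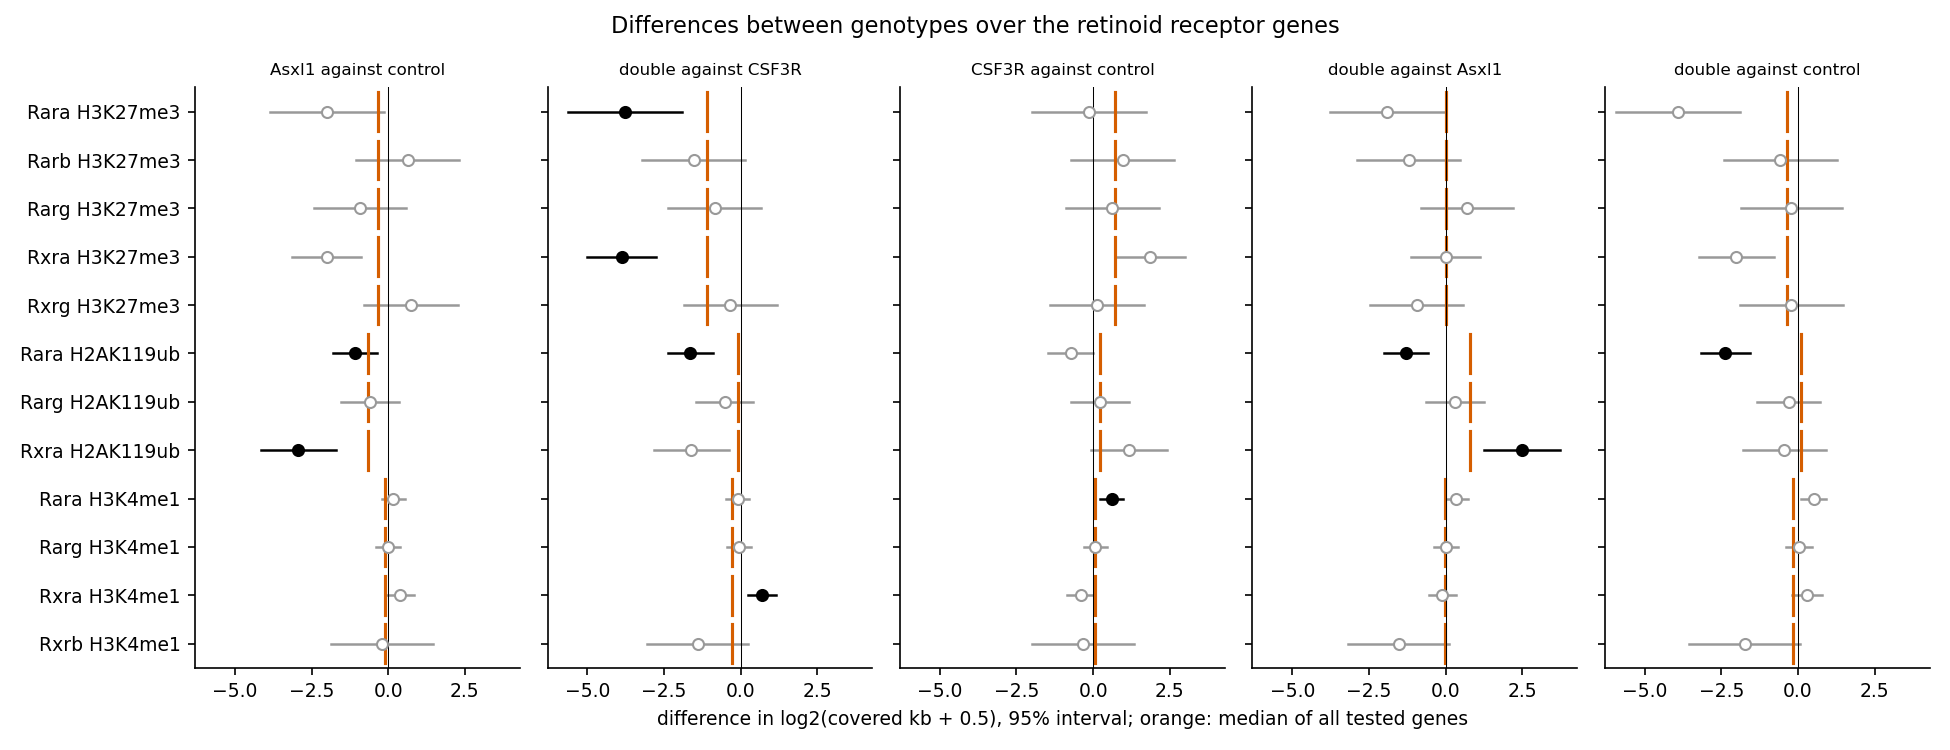
Differences in log2(covered kb + 0.5) with 95% intervals for the 12 gene and mark pairs tested, 1 panel per comparison. Filled points passed an adjusted p of 0.05, and orange bars give the median of all tested genes. Rara and Rxra hold all filled points.

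The genes that make, bind or answer retinoic acid were described from 4 lists. Of 25 genes of retinoid uptake, synthesis and breakdown, 11 were tested for H3K27me3 and limma called none in any comparison (1 had an unadjusted p under 0.05, in double against CSF3R). Of 8 tested for H2AK119ub, 1 rose in double against Asxl1, where 28.8% of all genes did: Dhrs3, which turns retinal back to retinol (0.933 ± 0.605 kb, n = 3, to 7.65 ± 3.68 kb, SD, n = 2; 2.54, adjusted p = 0.00444). It reached 2 kb only in libraries with CSF3R T618I. The call ended without double replicate 1 (adjusted p = 0.0671) and with covered length in the fit (1.71, adjusted p = 0.287). For Dhrs3, limma also called double against control (2.49, adjusted p = 0.0135; 9.64% of genes were called higher). That call held in 11 of 11 other settings, covered length included. It ended without control replicate 2 (2.10) or double replicate 1 (2.01). Of 3 genes of this list tested for H3K4me1, 1 was higher and 1 lower in double against Asxl1 (13.4% and 14.6% of all genes). Of 18 coregulators 7 were tested for H3K4me1 and limma called none in any comparison (1 had an unadjusted p under 0.05, in double against CSF3R).

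Of 13 nuclear receptors that pair with RXR, 6 were tested for H2AK119ub. Asxl1 against control was lower for 3 of them, as for 20.7% of all genes, with a list median of -1.19 against -0.65 for all genes. They include Vdr, the vitamin D receptor, which went from 2.67 ± 0.53 kb (n = 2) to 0.0667 ± 0.115 kb (SD, n = 3; -2.49, adjusted p = 0.00502, or 0.0528 without control replicate 1, 0.14 on the fraction scale and 0.128 without IgG-overlapping peaks). Ppard, a fatty acid receptor, went from 5.00 ± 0.778 kb (n = 2) to 0.933 ± 0.861 kb (SD, n = 3; -2.10, adjusted p = 0.018). That call ended without either control or Asxl1 replicate 1 or 2 (adjusted p = 0.0511 to 0.123), with no filter (0.0603), on the fraction scale (0.0825) and with covered length in the fit (0.12). The third was Nr4a1, an immediate early gene, named after its value was seen.

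Of 25 measured genes that answer retinoic acid or mark myeloid maturation, 15 were tested for H3K4me1 and 2 rose in CSF3R against control, where 8.63% of all genes did. Cd38, an ectoenzyme induced by retinoic acid in myeloid cells, went from 0.1 ± 0.141 kb (n = 2) to 9.67 ± 1.11 kb (SD, n = 3; 4.10, adjusted p = 0.000214). Asb2, a ubiquitin ligase subunit induced by retinoic acid, went from 0.125 ± 0.177 kb (n = 2) to 11.1 ± 0.861 kb (SD, n = 3; 4.24, adjusted p = 0.000888). Both were also long in double libraries (7.30 ± 3.32 and 13.8 ± 0.283 kb, SD, n = 2) and short in Asxl1 libraries (0 ± 0 and 0.717 ± 0.625 kb, SD, n = 3). Both reached the 2 kb needed for testing only in the 5 libraries with CSF3R T618I, so they were tested only because they were long there. The list's median was 0.12 against 0.08 for all genes. For H2AK119ub, 7 of 11 rose in double against Asxl1 (28.8% of all genes; list median 1.78 against 0.80) and 4 of 11, Tgm2, Zbtb16, Rai1 and Asb2, fell in Asxl1 against control (20.7% of all genes; list median -0.21 against -0.65). With covered length in the fit Zbtb16 and Rai1, which code for a transcription factor and a chromatin-binding protein, were called in neither comparison. Asxl1 against control was not called for either without control replicate 1 (adjusted p = 0.148 and 0.101) or 2 (0.0811 and 0.129), and it held in 6 and 5 of 11 other settings. For H3K27me3, limma called none of 8 in any comparison, and 0 had an unadjusted p under 0.05.

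The genes whose coverage ran most like a member's across the 10 libraries of a mark were found by Pearson's r on log2(covered kb + 0.5), leaving out predicted genes and genes within 1 Mb, as a description. They share the libraries and their list lengths with the member. For H2AK119ub at Rxra these were Zfp385a (r = 0.99), Vdr (r = 0.99) and Pear1 (r = 0.99). For H3K27me3 they were Sfxn3, Pdzd7 and Cstad at Rxra (each r = 0.99) and Tnfrsf25, Hsd11b2 and Espn at Rara (r = 0.98 to 0.99). Only genes near the member were left out, not genes near one another. Sfxn3 and Pdzd7 had the same r (0.994379), and whether they share peaks was not tested. For H3K4me1 at Rxrb they were Pxn, Cdc42ep4 and Rps6ka1 (r = 0.95 to 0.96).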

How the data were processed

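Per the submitters' processing notes, the authors' tools were Bowtie2 2.4.1 and deepTools 3.5, and the build was mm10. Which program called the peaks, and at what cutoff, is not given in the sources. The deposited peak lists hold positions only (unit: other), with widths that are multiples of 50 bp and at least 200 bp. They carry no counts, so no counting interval or detection floor applies.

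The kilobases of each gene and 5 kb each side that lay in peaks were computed per library and taken as log2(kb + 0.5). Genes with at least 2 kb in at least 2 libraries were fitted with limma 3.58.1 (R 4.3.3, trended eBayes), per mark over all 4 genotypes. The fraction of 10 kb centred on the first listed start (at least 0.2 in at least 2 libraries) was fitted likewise. It was taken without a log and with eBayes without the trend. Starts were listed for 17491 of 21883 genes. For the others the gene end with the higher mean coverage was used. Benjamini-Hochberg adjustment ran over all genes of a mark and comparison, called at 0.05. The fits were tested on simulated data.

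The members and gene lists were chosen with earlier results of these data known. Members were always named. List genes named were up to 6 per mark and comparison with the smallest adjusted p. Alternatives were other flanks and windows, added lengths, filters, peak widths, IgG overlap, list length, the replicate block and leaving out each library. Values for some genes of the lists are not reported here.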

Additional observations from a re-analysis of the deposited data

Results flagged for a closer look

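The Asxl1 guide's difference in H2AK119ub over Tgm2, a transglutaminase induced by retinoic acid, was not the same in the 2 backgrounds by a test of the interaction (3.43 on the log2 scale, limma adjusted p = 0.0286). Coverage was 5.85 ± 0.141 kb in control (SD, n = 2), 0.217 ± 0.202 kb in Asxl1 (SD, n = 3), 11.2 ± 2.92 kb in CSF3R (SD, n = 3) and 13.2 ± 3.29 kb in double libraries (SD, n = 2). The interaction did not pass without either control, Asxl1 replicate 1 or 2, CSF3R replicate 2 or 3, or double replicate 1 (adjusted p = 0.0563 to 0.214). Nor did it pass with the replicate block (0.116), with 0.1 kb added (0.0722), on the fraction scale (0.269) or with covered length in the fit (0.121).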

How the results depend on the processing

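Calls were counted over the 6 members and 6 comparisons. The share of all genes called in each other setting is not reported here. A rise or fall in these counts therefore cannot be read as particular to the members. For H3K27me3 over the gene there were 2 calls: 1 without IgG-overlapping peaks, 8 with list length as a covariate, and 0 to 9 with 1 library left out. For H2AK119ub there were 6: 3 on the fraction scale, 2 without IgG-overlapping peaks, 8 with list length as a covariate (2 lost and 4 gained), and 4 to 7 with 1 library left out. For H3K4me1 there were 2: 4 with a 2 kb flank or no flank, 1 with 0.1 kb added, the fraction scale or peaks of at least 500 bp, 0 with no filter, no trend or without IgG-overlapping peaks, and 0 to 3 with 1 library left out. In the 10 kb at the start, H3K27me3 had 2 calls: 1 with a 2 kb window, and 0 to 5 with 1 library left out. H2AK119ub had 3: 0 with a 2 kb window or any overlap, 1 with no filter or without IgG-overlapping peaks, and 1 to 7 with 1 library left out. H3K4me1 had 1: 0 with a 2 kb window, no filter, any overlap, the other gene end or without IgG-overlapping peaks, and 0 to 2 with 1 library left out. The any-overlap values are all or nothing, and differences of 0 there were not counted.

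Signs turned only without IgG-overlapping peaks, a setting that removes whole domains: Rara H3K4me1 in CSF3R against control (-0.53 over the gene, -0.129 at the start), Rara H2AK119ub in double against control at the start (0.055), and Camp H3K4me1 in double against CSF3R (1.05, from -1.09). Otherwise the cause of these changes was not tested.

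Same-numbered libraries of a mark did not deviate together throughout: the correlation passed 0.1 in 3 of 13 pairs for H3K27me3, 0 for H2AK119ub and 11 for H3K4me1, so the number was not taken as a pairing. With the replicate block there were 2, 6 and 2 calls over the gene, and 1, 1 and 1 at the start. For H3K4me1 over Rara the block ended CSF3R against control (adjusted p = 0.0518) and double against control passed (adjusted p = 0.0346).

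Each of the members' 10 calls over the gene held in 5 to 11 of 11 other settings. Groups of 2 or 3 libraries with unknown depth limit every comparison.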
